A study of Drosophila melanogaster with 2 samples.

Results

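Of the 2433 reproducible ChIP-seq peaks of the CG9876-GFP fusion in Drosophila melanogaster embryos, 510 had their summit in an intron of a protein-coding gene. A member's summit lay over 1 kb from every protein-coding transcription start site (TSS) and outside every 5' UTR, coding exon and 3' UTR of the Ensembl release 115 gene models on the dm6 genome. No measured value entered this choice beyond presence in the list. The other reproducible peaks were 1615 at promoters (summit within 1 kb of a TSS), 277 between genes and a small rest in exons. Both libraries belong to 1 group: whole embryos, mixed sex, 0 to 24 h old, of a transgenic line that stably carries CG9876 with GFP at its C terminus. The sample descriptions give an anti-GFP antibody, whereas the antibody field names CG9876. There are 2 biological replicates, with no treatment and no second genotype, and the control library was not analysed here. The signal of each region is the authors' own value for that list and orders regions only within the list. Whole embryos mix stages and cell types, so a weak peak in many cells and a strong peak in few cannot be told apart. Read depth is unknown.

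CG9876 encodes a paired-like homeodomain protein. Homeodomains of this class are known to bind short AT-rich sites built on a TAAT core, alone or, for several paired-class proteins, as dimers on palindromes of this core. Introns of fly developmental genes are known to hold many enhancers, stretches that transcription factors bind to set where and when the gene is read, and long introns near the 5' end of a gene often hold several.

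The sequences that follow are examples of the summits, words and motifs that the results below refer to, each held by a part of the members, and all are from the dm6 RefSeq genome, plus strand, 5' to 3'. The first set shows the 30 bases at the summits of the 5 strongest members. None of them is written with capitals because none holds the words or motifs capitalised in the later sets. Some hold others that are named further on. The line of Raf holds AGTGCA and that of CG11050 holds ACTAAA, both as reverse complements, and that of cno holds GCCATT. The TATA box TATAAA is in the line of CG32772 and, as its reverse complement, in that of ush.
ush, chr2L:481076-481105: tccctaaaaagaaattttatatttgtcgtt
CG11050, chr2L:6612712-6612741: tagattttgtattgcttttatcatttagtt
CG32772, chrX:4910350-4910379: aatttaaagttaagcggttataaaactaac
cno, chr3R:5215523-5215552: tttgtttagcttgtttgctcggccattggt
Raf, chrX:2297703-2297732: tcccgcaccaattctgcactattcacaagt

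The second set shows a 9-base word, CACTGAGAG in capitals, within 100 bp of the summits of the strongest members that hold it. It was picked after the 6-base words had been counted, as a longer word around the second of them. On the plus strand the word stands to the left of the summit in each of the first 7 lines, and its reverse complement stands to the right in the last, which comes from the same peak as the line before it.
bves, chrX:21059091-21059120: gtcaataatcaCACTGAGAGaaaatcctgt
ImpL2, chr3L:4228295-4228324: accacaaggtaCACTGAGAGaaaggattcg
ImpL2, chr3L:4230391-4230420: tggaaggggtgCACTGAGAGaaattaatgt
pnt, chr3R:23326401-23326430: tgtcgcaaatgCACTGAGAGaaaatagtag
CG43759, chrX:19018182-19018211: gtgtacaagtgCACTGAGAGaaataccacc
Lim1, chrX:8774163-8774192: acacgcagttgCACTGAGAGaaatcgagat
CG32264, chr3L:3802816-3802845: caaggggagtaCACTGAGAGaaacatttaa
CG32264, chr3L:3802937-3802966: ttcatgggtttCTCTCAGTGtataaagctg

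The third set shows another 9-base word, GCACAGTGG, which holds the leading 6-base word ACAGTG. It too was picked after the values were seen. In each of these lines it stands left of the summit as written or right of it as its reverse complement, and 1 peak of CG32264 has both. Copies that run the other way are counted further on.
CG32264, chr3L:3785129-3785158: cagcagctgtcGCACAGTGGgatgcacagt
CG32264, chr3L:3785298-3785327: tacaacccattCCACTGTGCccatgcagca
Csk, chr3R:11649715-11649744: gtatcgtgtgaCCACTGTGCgcttttaaaa
CHES-1-like, chrX:7700454-7700483: caagcgagtgcCCACTGTGCgccaaacagt
Pits, chrX:12579578-12579607: aaacgaaattgGCACAGTGGgcgttaggtg

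The fourth set shows the forkhead motif TGTTTAC, which was more frequent at summits than in each peak's own flank, in the strongest members that hold it, and then the GATA motif AGATAA.
Trl, chr3L:14759465-14759494: taactggtttttGTAAACAaattgtataag
Prps, chr3L:9693150-9693179: agaaatcagactGTAAACAattgtaagttg
Csk, chr3R:11649663-11649692: agcggtctttgtGTAAACAatcaaaagtct
CG9837, chr3R:8811618-8811647: tggacgaaagcgTTATCTtatatatttaga

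The strongest intron peak lay in the first intron of ush (u-shaped), which encodes a zinc-finger cofactor of GATA factors, at chr2L:480911-481274. Its signal was 1652.3 in the reproducible list, 899.5 in replicate 1 and 757 in replicate 2, and it ranked 2 in all 3 lists. Its nearest TSS, 1403 bp away, was that of the neighbour cbt and not one of ush. The next was CG11050 at chr2L:6612546-6612896, with 1118.5 in the reproducible list, 563.4 in replicate 1 and 562.5 in replicate 2. It sat in an intron of 140 bp, 54 bp from an exon. CG32772 followed with 865.4, 470.7 and 400.4 in the same order of lists. These 3 stood above every other intron peak in each replicate.

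Below them the replicates gave the members a different order. The peak of cno, which encodes the junction protein Canoe that links adherens junctions to actin, had 605.6 in the reproducible list, 229.7 in replicate 1 and 372.5 in replicate 2, ranks 96 and 20 in the replicates. The strongest peak of Raf, the kinase at the head of the MAP kinase cascade, had 575.7, 341.4 and 237.8. Trl, which encodes the GAGA factor, had 528.8, 300.6 and 230.7. Tlk, a Tousled-like kinase, had 513.2, 240.6 and 266.4. So cno and Tlk ranked higher in replicate 2, and Raf and Trl higher in replicate 1.

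The other named peaks of the 20 strongest ranged in the reproducible list from 320.2 at pico, an adaptor of the actin cytoskeleton, to 511.4 at Zw, the glucose-6-phosphate dehydrogenase gene. They include osa (502.2), a subunit of the Brahma chromatin remodeller, norpA (478.4), the phospholipase C of phototransduction, and NFAT (434.2), which encodes the fly NFAT-family transcription factor. Prps (360.5) encodes a phosphoribosyl pyrophosphate synthetase, Csk (359.4) a negative regulator of Src kinases, for (345.3) a cGMP-dependent kinase and EcR (326.8) the ecdysone receptor. The remaining hosts among the 20 were CG32486 (487.7), CG3726 (453.4), CG9837 (352.8) and, nested at the same place, Hyls1 and chif (324.5). Of these 20 peaks, 15 lay up to 2 kb from a TSS and 8 lay on the X.

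**Figure D1:**
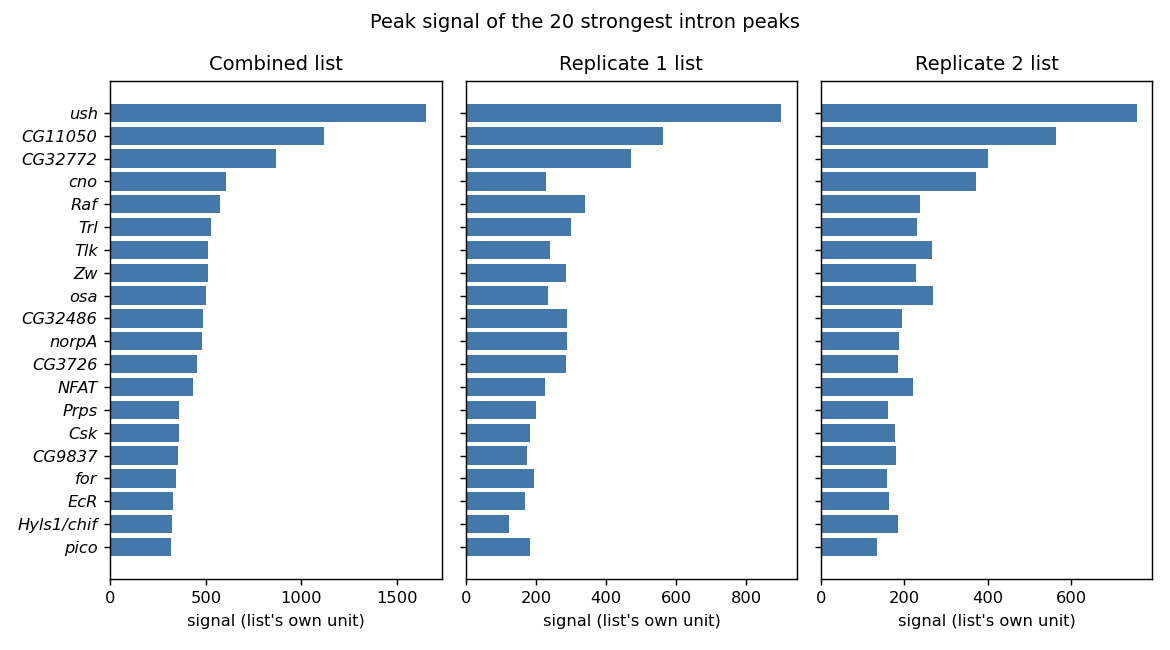
Signal of the 20 strongest intron peaks, named by host gene, in the reproducible list (combined alignments), the replicate 1 list and the replicate 2 list. Each panel has its own unit and a linear axis from 0. The peak of ush leads each panel, at 1652.3, 899.5 and 757, and cno stands higher relative to its neighbours in replicate 2 than in replicate 1.

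Over all members the signal had a median of 122 in the reproducible list, from 85.4 to 1652.3. Where a replicate region held the summit, the median was 60.6 in replicate 1 and 64.9 in replicate 2. Of the 510 members, 8 had no region at the summit in replicate 1 and 2 had none in replicate 2. A summit near Hyls1 and chif was in neither. Across the 501 members listed in both, the Spearman correlation of the signals was 0.47, a description over peaks that share the same libraries and were chosen for reproducibility.

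Of the members, 396 (77.6%) were among the strongest 2433 regions of replicate 1 and 413 (81.0%) among those of replicate 2. They were 311 in both, 85 in replicate 1 alone, 102 in replicate 2 alone and 12 in neither. The replicate-specific counts did not differ in an exact two-sided McNemar test (p = 0.24), and over the strongest 5000 regions replicate 2 held more (log2 ratio -1.35, p = 0.0015). Promoter peaks reached the top 2433 of the 2 replicate lists more often, 1130 of 1615 (70.0%) against 61.0% of intron peaks (log2 odds ratio -0.58, 95% interval -0.88 to -0.28; Fisher's exact test, two-sided, p = 0.00021). The median signal was 133 at promoters and 122 in introns, and its part in the difference was not tested. In Fisher's exact tests it did not hold over the strongest 5000 regions (p = 0.11), and in the upper 1216 reproducible peaks by signal its sign turned (log2 odds ratio 0.74, p = 0.22).

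The distance from an intron peak to the nearest TSS, whichever side of it the summit lay on, had a median of 3700.5 bp, with 144 members between 1 and 2 kb and 24 beyond 20 kb. The shortest was 1003 bp, in CG13917, and the longest 42301 bp, in mamo, a zinc-finger gene. Among 7712 lower-ranked intron candidates, which are regions of the combined list that meet the same location rule and overlap no reproducible peak, the median was 5368 bp, and the difference was not tested. At the rule's limit, 20 members between 1001 and 1100 bp from a TSS had a median signal of 135, and 42 promoter peaks between 901 and 1000 bp had 118. The nearest TSS belonged to a host gene for 411 members and to another gene for 99.

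First introns held 352 of 510 members (69.0%, 95% exact interval 64.8% to 73.0%) and 4087 of 7712 lower-ranked candidates (53.0%, 51.9% to 54.1%). First intron here means the first of any transcript of a protein-coding gene. Members were more often in a first intron, with a log2 odds ratio of 0.98 (0.70 to 1.26; Fisher's exact test, two-sided, p = 1.1e-12). Peaks are not independent replicates, so the spread between replicates is the better error: among the strongest 2433 regions of each replicate, the intron summits were in first introns at 67.1% in replicate 1 and 69.8% in replicate 2, 68.5% ± 1.91 (SD, n = 2). Of all intron sequence that could meet the rule, 40.5% was first intron. Against the next 2433 candidates below the reproducible list, of whose intron summits 60.9% lay in a first intron, the log2 odds ratio was 0.52 (Fisher's exact test, p = 0.0047).

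Distance and first introns go together, so the share was also read by distance. Between 1 and 2 kb from a TSS, 84.7% of members and 73.6% of lower-ranked candidates were in a first intron. Between 2 and 5 kb the shares were 72.3% and 60.2%, and between 5 and 10 kb 61.4% and 49.7%. Members had the higher share in each of the 5 distance classes, also beyond 20 kb, where 24 members gave 37.5% against 24.3%.

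**Figure D2:**
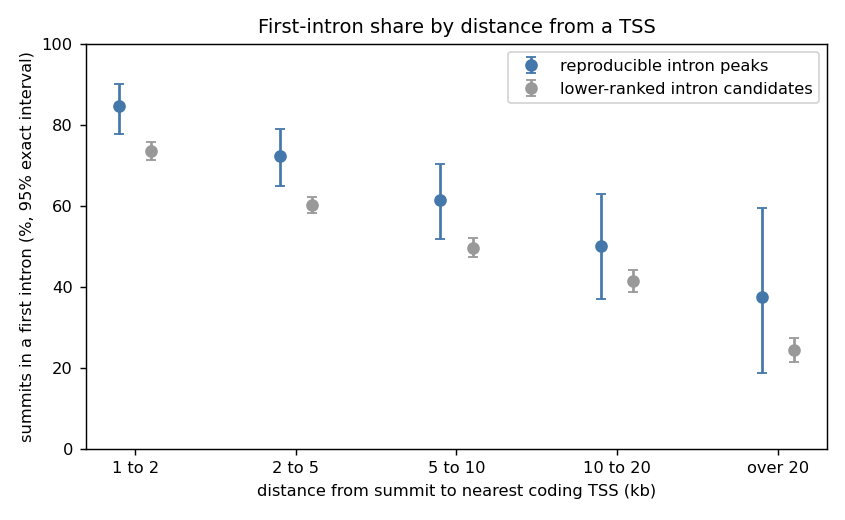
Share of summits in a first intron (vertical axis, percent, with 95% exact intervals) by distance to the nearest coding TSS (horizontal axis, kb), for the 510 intron peaks and the 7712 lower-ranked intron candidates. Both shares fall with distance, from 84.7% and 73.6% nearest a TSS, and the intron peaks lie above the candidates in each class. The intervals overlap in the classes beyond 5 kb.

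Host genes were often bound at their promoter too. A host with a reproducible summit within 1 kb of one of its TSSs was found for 208 members (40.8%) and for 2270 lower-ranked candidates (29.4%), with a log2 odds ratio of 0.72 (0.46 to 0.99; Fisher's exact test, two-sided, p = 1.5e-07). Against the candidates ranked next, the shares were 40.8% and 40.8%, with a log2 odds ratio of 0.00 (Fisher's exact test, p = 1), so the call rests on candidates further down the list. Of the 20 strongest members, 13 had a host with a promoter peak, among them those in ush, Raf, Trl, Tlk and NFAT. Among the hosts without one were Zw, osa, norpA and EcR.

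The starts of genes that code for no protein did not enter the location rule. They lay within 1 kb of 27 members (5.29%) and of 264 lower-ranked candidates (3.42%), a log2 odds ratio of 0.68 (0.10 to 1.26; Fisher's exact test, two-sided, p = 0.034). In Fisher's exact tests the call was lost with a TSS distance of 500 bp (p = 0.058) and without replicate 1 (p = 0.11). Here and below, leaving out a replicate means that the strongest 2433 regions of the other replicate replaced the reproducible list. The intron regions compared are then not the same as the members. The strongest of the 27 were Zw, 861 bp from an antisense RNA start, osa, 703 bp from that of a long noncoding RNA, and Prps, 719 bp from an antisense RNA start. Only 6 of the 27 lay within 100 bp of such a start, among them a summit in kis, 10 bp from that of a long noncoding RNA. No member's summit lay in an annotated transposable element.

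The X held more of the intron peaks than of promoter, intergenic or lower-ranked intron summits, which was noticed after the values were seen and was not tested. On the X lay 125 of 510 members (24.5%, 20.8% to 28.5%), 16.6% of the lower-ranked intron candidates, 16.7% of promoter peaks and 11.9% of intergenic peaks. Of the intron candidates ranked next below the reproducible list, 21.6% lay on the X (18.4% to 25.1%), an interval that overlaps that of the members. Per Mb of intron sequence that could meet the rule there were 14.0 members on the X, and 9.4 to 11.1 on each of the other large arms. Chromosome 4, with 0.52 Mb of such sequence, held none. Among the strongest 2433 regions of each replicate, the X held 27.1% of the intron summits in replicate 1 and 21.2% in replicate 2, 24.2% ± 4.21 (SD, n = 2). Of the replicate 2 summits with no reproducible peak 12.04% were on the X, and of those of replicate 1 25.6%.

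The 510 peaks fell in 387 host genes, 4.43% of the 8733 protein-coding genes with any intron sequence that could meet the rule. Hosts were long: their median of such sequence was 16304 bp, against 307 bp over all 8733 genes. In 24 cases the summit lay in introns of nested or overlapping genes, and all of them count as hosts. There were 293 hosts with 1 peak, 59 with 2, 24 with 3 and 11 with 4 or more, and 231 peaks lay in a gene with more than 1. Within 5 kb of another intron peak lay 123 members.

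Raf and Hr4, both on the X, held 7 peaks each. The Raf peaks ran from 2.3 to 34 kb behind the 5' end of the gene, and the strongest sat in an intron of 43637 bp. Their signals were 575.7, 217.2, 175.5, 168, 146.2, 115.8 and 115.1. In replicate 1 these peaks ranged from 45.7 to 341.4 and in replicate 2 from 41.7 to 237.8, and the peak nearest the gene start led in both. Those with 175.5 and 115.1 lay 652 and 187 bp from the starts of long noncoding RNAs inside Raf. Hr4 encodes a nuclear receptor of the ecdysone response and had no promoter peak. Its signals ran from 87 to 268.2, with 4 of the 7 peaks in a first intron and no single leading peak.

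ush held 5 peaks, in which 1652.3 stood far above 278.7, 154, 106.5 and 96.2. In replicate 1 the same peaks had 899.5, 92.7, 50.2, 46.2 and 34.9, and in replicate 2 757, 186.9, 100.9, 61.5 and 56.2. The order was the same in all 3 lists. Eip75B, another ecdysone-response nuclear receptor, also held 5, all of similar signal (88.7 to 133.8) and between 34.9 and 76.4 kb from its 5' end. The genes with 4 peaks were Tlk (152.1 to 513.2), kirre (112 to 261.6), crp (94.4 to 205.4), CG13917 (87.2 to 171.3), simj (85.5 to 159.9), shn (90.5 to 147.6) and sbb (87.1 to 136.7). kirre encodes an immunoglobulin-domain protein of myoblast fusion, crp a bHLH factor of the AP-4 type, simj a subunit of the NuRD complex, shn a zinc-finger factor of Dpp signalling and sbb a nuclear co-repressor.

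**Figure D3:**
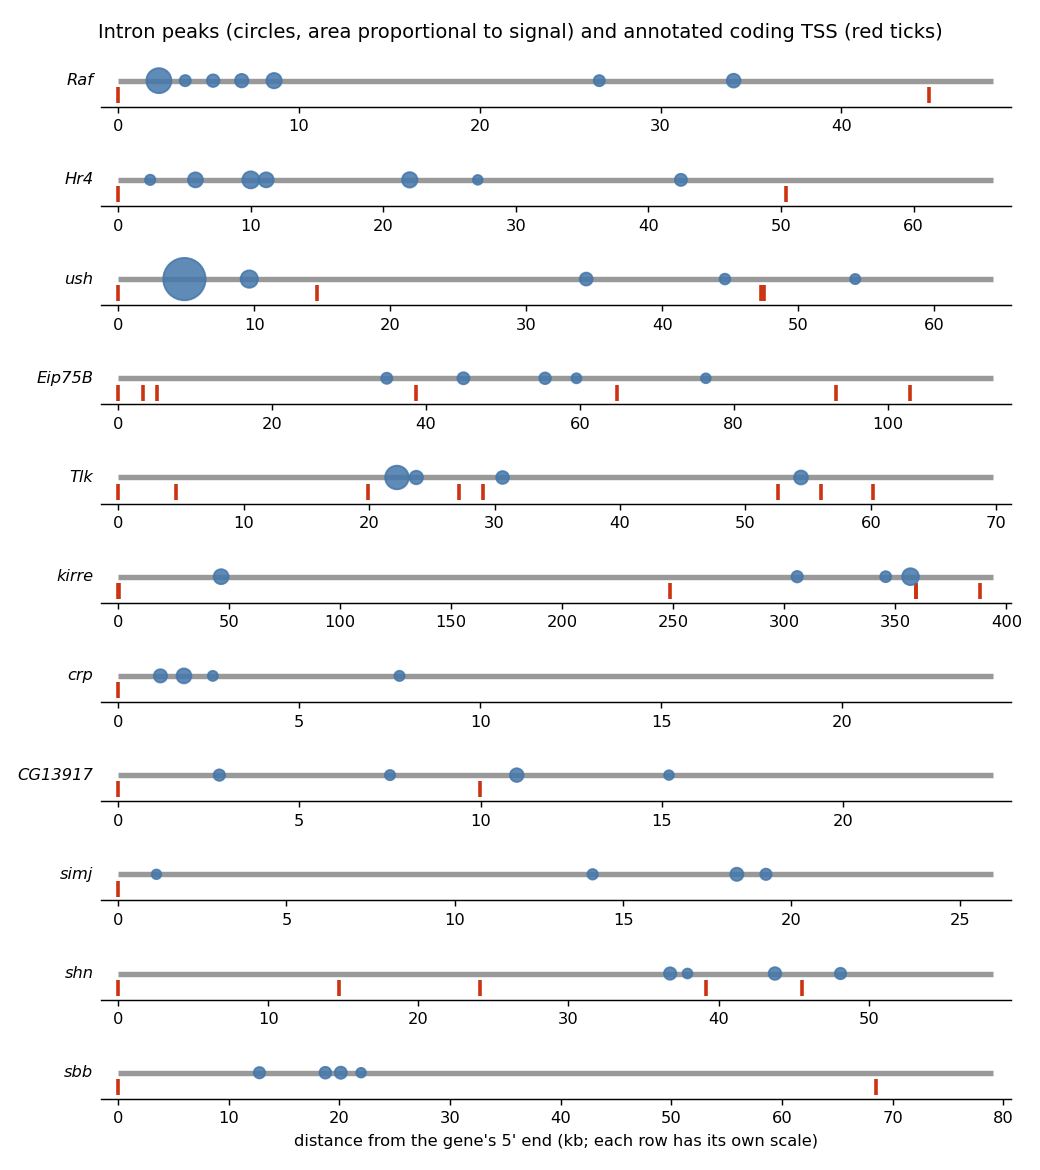
The 11 genes with 4 or more intron peaks, each drawn from its 5' end with its own scale in kb. Circles are intron peaks with area proportional to signal, and red ticks are annotated coding TSSs. The 4 peaks of Tlk lie within 3392 bp of one of its TSSs, those of sbb between 12.8 and 22 kb from the gene start, and the strongest circle is that of ush at 4.9 kb.

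The gene lists describe the hosts by role, and no list was tested. Over all genes with intron sequence that could meet the rule 4.43% were hosts, but most lists hold genes with longer introns. The density of peaks per Mb of that sequence is therefore given beside the share, 10.5 over all. Members lay nearer to a TSS (median 3700.5 bp) than lower-ranked candidates (5368 bp). Density can thus also vary with intron length, which was not tested. In the ecdysone response list 8 of 27 genes were hosts (29.6%), with 27.0 peaks per Mb. Of its 21 peaks 7 lay in Hr4. The hosts were led by EcR (326.8), the nuclear receptor Hr3 (301.7) and Hr4 (268.2). Of 30 genes of EGFR, FGF and Ras signalling, 9 were hosts with 17 peaks, 7 of them in Raf, and 43.4 per Mb. After Raf came S (279.4), which encodes Star, a cofactor in the release of EGFR ligands, and aos (254.1), which encodes a secreted inhibitor of EGFR. The receptor gene Egfr had 1 peak of 109.3.

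Among 42 genes of Wnt, Hedgehog and BMP signalling with eligible introns, 13 were hosts, at 33.6 peaks per Mb. The highest were fz (247.8), a Wnt receptor, wit (208.6), a BMP type II receptor, and dlp (206), a glypican. Notch signalling had 3 hosts of 16 at 20.8 peaks per Mb, namely mam (224.6), a co-activator, N (204.1), the receptor, and fng (134.9), a glycosyltransferase that modifies Notch. Insulin and TOR growth control had 4 of 20 at 43.25 per Mb from 5 peaks, led by ImpL2 (232.7), a secreted protein that binds insulin-like peptides, InR (155.2), the insulin receptor, and REPTOR (129.6), a transcription factor under TOR. ImpL2 is the host of 2 of the peaks whose CACTGAGAG copies are printed above.

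Among 39 Polycomb, trithorax and chromatin genes 6 were hosts, led by osa (502.2), Mi-2 (274.7), a nucleosome remodeller, and trx (190.3), a histone methyltransferase. Their density was 58.2 peaks per Mb, from 8 peaks, and the median eligible sequence of the 39 genes was 325 bp. The segmentation and zinc-finger list had 7 hosts of 43 at 23.04 peaks per Mb, with ush (1652.3), Trl (528.8) and ken (185.6), a repressor, at its head. Homeobox genes, the class of CG9876, had 6 hosts of 76 at 7.11 peaks per Mb, below the 10.5 of all genes, with zfh1 (223.6), ct (154.7) and Antp (153) highest. CG9876 itself lies on arm 2R and held no intron peak, although 2341 bp of its introns could have met the rule. The nearest reproducible summit lay 2905 bp outside the gene, with a signal of 88.4.

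In 4 further lists the density was below that of all genes. Axon guidance and adhesion had 11 hosts of 52 at 7.21 peaks per Mb, led by kirre (261.6), ed (187.5), a cell adhesion molecule, and mew (155.8), an integrin subunit. RNA-binding proteins had 8 of 36 at 6.43 per Mb, led by Rbfox1 (216.2), shep (195) and pum (188.9). Neuronal excitability and synapse genes had 3 of 33 at 4.06 per Mb, namely dnc (168.9), Ca-alpha1T (121.6) and Ih (91.8). Muscle structure genes had 1 of 30, Tm1 (86.7), at 4.79 per Mb.

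Summits were poorer in GC than their surroundings. GC content within 100 bp of the summit was below that of the peak's own flank, centred 500 bp away, in most members: it was higher at the summit in 181 of 500 with a difference (36.2%), with 10 ties (exact two-sided sign test, p = 7e-10). The medians were 37.8% at summits and 41.0% in flanks. In windows of 25 bp the mean was 36.2% at the summit and 43.9% and 44.3% at 200 bp on either side. Lower-ranked intron candidates ran the other way, with 46.2% at the summit and 43.7% and 43.3% at 200 bp. Intergenic peaks also had a dip, with 38.6% at the summit and 43.2% and 42.0% at 200 bp. Promoter peaks had 41.1% at the summit and 41.7% and 41.6% at 200 bp.

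Words of 6 bases, counted on both strands, were compared between each summit window and its flank. Of all such words, 45 (2.16%) passed a Benjamini-Hochberg adjusted p of 0.05 in exact McNemar tests, 39 more frequent at summits and 6 in flanks. ACAGTG led: it was found at 132 of 510 summits (25.9%) and in 40 flanks (7.84%; log2 ratio of discordant peaks 2.04, adjusted exact p = 3e-11). CACTGA followed with 109 summits (21.4%) and 36 flanks (7.06%; log2 ratio 1.91, adjusted exact p = 3.3e-08), and then ACACTG with 21.6% and 8.24%. Next were CAGTGC (20.2% of summits), AGTGTA (19.2%), ACTGAG (13.5%), ACTAAA (22.5%), AGTGCA (21.4%), ACTGTG (18.2%) and CTGAGA (11.8%). Apart from ACTAAA and CTGAGA, these words overlap around CACTG or its reverse complement CAGTG, or hold its last or first 4 bases. CTGAGA lies inside the longer word CACTGAGAG. Counts of overlapping words are not independent, and how many elements they stand for was not tested. The words more frequent in flanks, such as GCCAGC and CACCCA, are rich in G and C. The part of the GC difference between summits and flanks in these calls was not tested. In the intron regions among the strongest 2433 of either replicate alone, the 10 named words had log2 ratios from 0.86 to 1.96, and all kept their call except ACTGAG without replicate 1 (1.04, adjusted exact p = 0.065). In the upper 1216 reproducible peaks by signal 7 of the 10 lost their call, among them ACACTG (1.42, adjusted exact p = 0.058), and those that kept it were ACAGTG (1.80), CACTGA (2.35) and AGTGCA (1.77). With a 50 bp window 7 of the 10 lost it, among them CACTGA (1.31, adjusted exact p = 0.094), and those that kept it were ACAGTG (1.69), ACACTG (1.65) and ACTAAA (1.37). With flanks 1 kb away AGTGCA lost it (0.75). ACAGTG passed under each of the 8 settings run for the named words.

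The other classes shared these words in part, and these comparisons were added after the values were seen. Against lower-ranked intron candidates 735 words (35.3%) passed in Fisher's exact tests, 333 higher and 402 lower, with ACAGTG at 11.1% of candidates (adjusted p = 1.2e-15) and CACTGA at 11.3% (adjusted p = 2.7e-08). The median GC content of these sets also differed, 37.8% and 45.3%, and its part in the calls was not tested for words. Against promoter peaks 94 words (4.52%) passed in the same kind of exact test, with ACAGTG at 19.1% (adjusted p = 0.033), CACTGA at 13.2% (adjusted p = 0.0016) and ACACTG at 21.3% (adjusted p = 1). Against intergenic peaks 0 words (0%) passed in Fisher's exact tests, with 115 at an unadjusted p under 0.05, and there CACTGA stood at 22.4% and ACAGTG at 19.9%.

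The words had a direction relative to the summit, noticed after the values were seen and given as counts without a test. A copy is said to read towards the summit when it runs 5' to 3' in the direction of the summit, on whichever strand. Of 156 copies of ACAGTG within 100 bp of intron summits, 116 read towards the summit and 40 away (74.4% towards, 95% exact interval 66.8% to 81.0%). For CACTGA they were 87 and 35 (71.3%), and for CAGTGG 88 and 22 (80.0%). At lower-ranked intron candidates the shares towards were 55.4% for ACAGTG (52.1% to 58.6%), 53.3% for CACTGA and 51.2% for CAGTGG. Intergenic peaks had 73.4%, 77.5% and 71.1% in the same order. Promoter peaks had 66.6%, 59.0% and 68.9%. Not every word had a direction at promoters. For ACACTG the shares towards were 73.2% in introns and 51.4% at promoters. For GCACTG, the reverse complement of CAGTGC, they were 74.6% and 50.5%. For TACACT, the reverse complement of AGTGTA, they were 72.2% and 69.05%.

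The 9-base words of the sequences shown above were rarer and more one-sided. CACTGAGAG was found at 22 intron summits (4.31%), 23 copies towards the summit and 0 away, and at 15 intergenic summits (5.42%; 14 towards, 1 away). At promoters it was found at 15 summits (0.93%) and at lower-ranked intron candidates at 60 (0.78%). GCACAGTGG was found at 24 intron summits (4.71%), 27 copies towards and 3 away, at 51 promoters (3.16%) and at 82 lower-ranked candidates (1.06%). The members were not marked by signal: the 22 with CACTGAGAG had a median of 118.7 and the others 121.7. Over the 6 arms there were 1331 copies of CACTGAGAG, of which 55 (4.13%) lay within 100 bp of a reproducible summit and 26 in annotated transposable elements. The files give no factor for these words.

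In regions that entered neither the reproducible list nor the choice of words, the direction was seen in part. Among 90 strongest intron regions of replicate 1 with no reproducible peak, ACAGTG had 18 copies towards and 9 away, and CACTGA 14 and 6. Among 108 of replicate 2, ACAGTG had 8 and 8, and CACTGA 10 and 2. CAGTGG had 15 copies towards and 6 away in replicate 1, and 6 and 7 in replicate 2. At these numbers the intervals are wide, 24.7% to 75.3% for the 8 and 8.

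**Figure D4:**
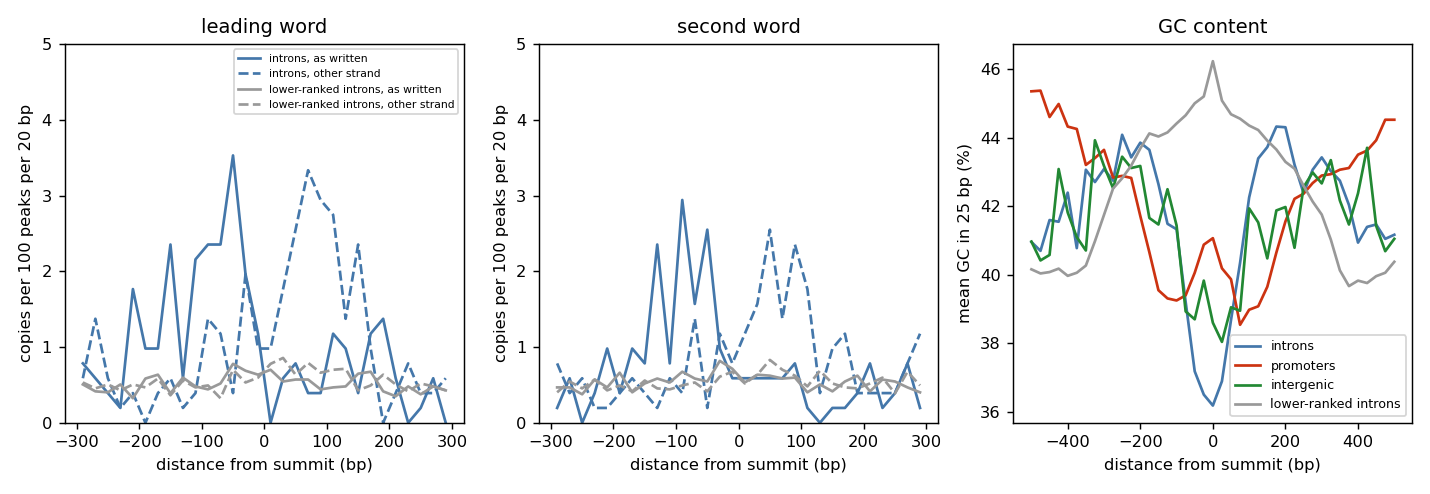
Left and centre, copies of the leading word (ACAGTG) and the second word (CACTGA) per 100 peaks in bins of 20 bp against distance from the summit in bp, as written (solid) and as reverse complement (dashed), at intron peaks (blue) and lower-ranked intron candidates (grey). Right, mean GC in 25 bp at 4 classes of region. Copies as written pile up left of the summit and reverse complements right of it, around an AT-rich centre of 36.2% GC, while at the candidates ACAGTG reaches 0.856 copies per 100 peaks and CACTGA 0.83, and GC is highest at their centre.

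The motif list held 30 known sites, searched on either strand in the same windows of 201 bp. None of its 6 homeodomain motifs that hold TAAT passed in any of the 4 comparisons. The site of Caudal, also a homeodomain protein, holds no TAAT and is given with the called motifs. The paired-class palindrome TAATNNNATTA was at 6 summits (1.18%, 95% exact interval 0.43% to 2.54%) and in 9 flanks (1.76%), a log2 ratio of -0.55 (-1.99 to 0.89). TAATTA was at 62 summits (12.2%) and in 67 flanks (13.1%), with a log2 ratio of -0.13 (-0.67 to 0.41). TAATTG was at 93 summits and in 104 flanks (-0.20, -0.64 to 0.25). These intervals hold differences in both directions. The lowest adjusted p of the 6 was 0.61 against flanks, 0.16 against lower-ranked candidates, 0.38 against promoters and 0.35 against intergenic peaks.

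Against their own flanks 3 of 30 motifs (10%) passed in exact McNemar tests. The forkhead motif TGTTTAC was at 49 summits (9.61%) and in 24 flanks (4.71%; log2 ratio 1.05, 0.33 to 1.76, adjusted exact p = 0.041). The Caudal motif TTTATGG was at 11 summits (2.16%) and in 39 flanks (7.65%; log2 ratio -1.78, adjusted exact p = 0.0027). The Pleiohomeotic motif GCCATT was at 51 summits (10%) and in 85 flanks (16.7%; log2 ratio -0.86, adjusted exact p = 0.031). The median GC content was 37.8% at summits and 41.0% in flanks, and its part in these calls was not tested. Each of these calls was lost in the strongest 2433 regions of 1 replicate taken alone. Without replicate 2 the forkhead motif had a log2 ratio of 0.48 (adjusted exact p = 0.75) and the Caudal motif -1.07 (adjusted exact p = 0.17), and without replicate 1 the Pleiohomeotic motif had -0.60 (adjusted exact p = 0.25). In the upper 1216 reproducible peaks by signal none of the 3 passed.

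Against intergenic peaks 1 of 30 motifs (3.33%) passed in Fisher's exact tests, again the forkhead motif, which was at 9 of 277 intergenic summits (3.25%; log2 odds ratio 1.60, 0.58 to 2.62, adjusted p = 0.026). Without replicate 2 it had 0.98 (Fisher's exact test, adjusted p = 0.45), and it also did not pass in the upper 1216 peaks by signal, with a TSS distance of 2 kb or with a 50 bp window. Against promoters 8 of 30 (26.7%) passed. The promoter element DRE, TATCGATA, was at 146 promoters (9.04%, exact interval 7.69% to 10.55%) and at 0 intron summits (exact interval up to 0.72%). Ohler motif 1, GGTCACACT, was at 56 promoters (3.47%, 2.63% to 4.48%) and at 0 intron summits (up to 0.72%). Against a floor of 3 counts over the intron set (0.59%), the promoter shares were 15.4-fold higher for DRE and 5.89-fold higher for Ohler motif 1. These folds take the promoter share as observed and are not lower limits. The intervals cover counting error only. The core CGATA was at 41.4% of promoters and 21.4% of intron summits, and the Ets motif CCGGAA at 7.62% and 2.55%. Motifs higher in introns were GATA (16.5% against 10.7%), the Su(Hw) part TGCATA (19.2% against 12.4%) and the E-box CATATG (9.22% against 5.51%), while the E-box CAGCTG was lower (6.27% against 13.6%). In Fisher's exact tests with other settings 4 of the 8 lost their call at least once. CATATG lost it in the upper 1216 peaks by signal (log2 odds ratio 0.95, adjusted exact p = 0.058), with a 50 bp window (0.43, adjusted exact p = 0.45) and with a TSS distance of 2 kb (0.07, adjusted exact p = 0.94). Ohler motif 1 and the Su(Hw) part lost it in the upper 1216 peaks (adjusted exact p = 0.058 and 0.25), and GATA without replicate 2 (0.55, adjusted exact p = 0.053).

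Against lower-ranked intron candidates 11 of 30 motifs (36.7%) passed, 5 higher and 6 lower. The TATA box TATAAA was at 137 summits (26.9%) and 15.1% of candidates (log2 odds ratio 1.04, Fisher's exact test, adjusted p = 2.1e-09), and GATA at 16.5% and 9.79% (0.87, adjusted p = 0.00011). STAT, TTCNNNGAA, stood at 7.45% and 4.06%, the forkhead motif at 9.61% and 5.25% and the Su(Hw) part at 19.2% and 13.6%. Lower in members were the Pleiohomeotic (10% against 16.6%), Caudal (2.16% against 5.89%), Ets (2.55% against 5.12%), Su(H) (1.57% against 3.53%) and E-box CAGCTG motifs (6.27% against 9.92%) and the CA repeat (5.69% against 8.99%). The summit GC of the sets differed, 37.8% against 45.3% at the median, and in a binomial logistic model with GC content as a covariate 2 of the 11 kept their call, forkhead higher (log2 odds ratio 0.66, adjusted p = 0.038) and Caudal lower (-1.68, adjusted p = 0.0053). The TATA box had a log2 odds ratio of 0.09 there and no call. In the upper 1216 peaks by signal 7 of the 11 lost their call, and with a 50 bp window 5. Left-out replicates ended further calls in Fisher's exact tests. Without replicate 1 the E-box CAGCTG (-0.06), the CA repeat (-0.40) and Su(H) (-0.98) did not pass, and without replicate 2 Ets (-0.82), Su(H) (-1.06), the Su(Hw) part (0.41) and the forkhead motif (0.31, adjusted p = 0.52 from the exact test) did not. Against the candidates ranked next only the E-box CAGCTG kept its call (-1.04, Fisher's exact test, adjusted p = 0.021).

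**Figure D5:**
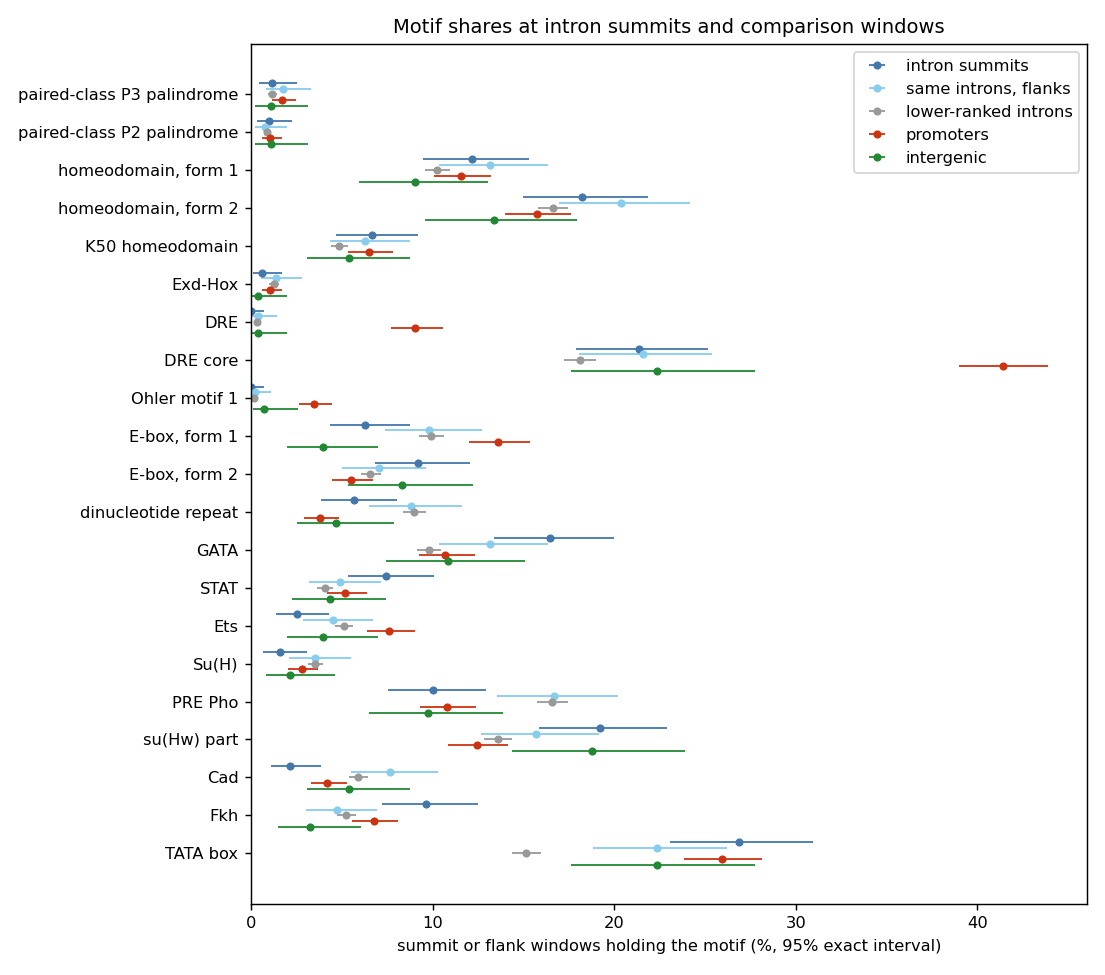
Share of windows of 201 bp that hold each motif (horizontal axis, percent, with 95% exact intervals) at intron summits, in the flanks of the same peaks and at summits of lower-ranked intron candidates, promoters and intergenic peaks. Homeodomain forms 1 and 2 are TAATTA and TAATTG, E-box forms 1 and 2 are CAGCTG and CATATG, and the DRE core is CGATA. The intervals of the TAAT motifs overlap between intron summits and flanks, the forkhead share is 9.61% at intron summits and 4.71% in flanks, and DRE is found at 9.04% of promoters and no intron summit.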

How the data were processed

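The data are ChIP-seq regions from 2 biological replicates of 1 group, and p-values over peaks do not measure spread between embryo collections. Per the deposited text files, each replicate was called against a control, the combined list was called on both, and the reproducible list was drawn from all 3 by irreproducible discovery rate. Aligner, peak caller and depth: not given in the sources used here. Column 7 of the deposited dm6 lists holds the authors' signal, used only to rank and describe regions within a list, and column 9 the authors' −log10 q-value, shared in its highest value by 429 of 510 members.

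Summits (start + offset, counted from 1) were classified with Ensembl release 115, and sequences read from the dm6 RefSeq genome in Python 3.11.15 with pandas 2.3.3, scipy 1.17.1 and, for the logistic model, statsmodels 0.14.6. Motifs, all words of 6 bases and GC content were read within 100 bp of each summit, and in 1 flank per peak centred 500 bp away on a side drawn with a fixed seed. Tests were exact McNemar tests, Fisher's exact tests and a sign test, two-sided, adjusted by the Benjamini-Hochberg method over all motifs or words of a comparison, threshold 0.05. Odds ratios have 0.5 added to each cell and 95% Wald intervals, and shares Clopper-Pearson intervals, which cover counting error only. The code was tested on made-up sequences. Gene lists hold Ensembl names, older symbols were matched through RefSeq, and 4 names that matched several genes were left out.

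Named are the hosts of the 20 strongest members, every gene with 4 or more, up to 3 hosts per list by signal, CG9876, called motifs and the 10 more frequent words with the lowest p. Others, among them cbt, mamo, kis, Egfr, the hosts of printed sequences and the 9-base words, were chosen after their values were seen. The members, lists, motifs and tests were chosen with earlier results of these data known. The result of 1 gene list is not reported here.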

Additional observations from a re-analysis of the deposited data

How the results depend on the processing

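The first-intron share and the summit GC share kept direction and call under all 7 and 8 alternatives, with log2 odds ratios without a replicate from 0.84 to 1.05 and from -0.65 to -0.58. Without a replicate the promoter-bound host share ran from 0.82 to 0.98 and the noncoding TSS share from 0.51 to 0.81, the latter losing its call without replicate 1 and with a TSS distance of 500 bp (0.54). The promoter-bound host share lost its call against the next-ranked candidates (0.00). Over the strongest 5000 regions the replicate difference was called (-1.35) and the difference from promoters was not (-0.40), and in the stricter list (the upper 1216 by signal) the latter reversed (0.74). The causes were not tested.

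Counts of called motifs were, against flanks, 0 in the stricter list, 1 with a 50 bp window and 2 without either replicate; against lower-ranked candidates 4 in the stricter list, 1 against the next-ranked, 7 with 50 bp, 4 with GC as a covariate (28 motifs fitted) and 8 to 11 without a replicate; against promoters 5 in the stricter list and 7 to 9 without a replicate; and against intergenic peaks 0 in the stricter list, 3 with 500 bp, 0 with 2 kb, 0 with a 50 bp window and 0 to 1 without a replicate. DRE and Ohler motif 1 could not be fitted with GC as a covariate. Called words numbered 6 in the stricter list, 90 with 500 bp, 20 with 2 kb, 10 with a 50 bp window, 72 with flanks 1 kb away, 33 to 41 without a replicate and, in comparisons added later, 735, 94 and 0 against lower-ranked, promoter and intergenic summits. The stricter list and 2 kb hold fewer peaks. Within the comparison that called it, no named motif or word changed its direction under any alternative run. In the later comparison with intergenic peaks the named words went both ways. AGTGTA, for example, had a log2 odds ratio of -0.4 and ACAGTG of 0.49, and neither was called. No paired analysis was possible because the series has 1 group.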
